A study of Homo sapiens with 9 samples.

Results

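DDIT3, which encodes the transcription factor CHOP, was followed together with CEBPB, TRIB3, PPP1R15A (GADD34) and DDIT4, 5 genes of the cell's answer to misfolded protein in the endoplasmic reticulum (ER). Each was read by 1 probe of an Illumina bead array with 22184 probes: ILMN_1676984 for DDIT3, ILMN_1693014 for CEBPB, ILMN_1787815 for TRIB3, ILMN_1659936 for PPP1R15A and ILMN_1661599 for DDIT4. The annotation of the array platform gave these names and no second probe for any of the 5 genes. The probes were chosen by their IDs with earlier results of these data known, so their changes against the vehicle are given as a description and without a test. All 5 were detected on every array used.

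The cells were SH-SY5Y, an established human neuroblastoma line with features of sympathetic neuron precursors, grown in DMEM/F12 with fetal bovine serum. The 3 groups, with 3 labelled samples each, received DMSO (the vehicle), thapsigargin or tunicamycin. Thapsigargin blocks the SERCA pump that loads calcium into the ER. Tunicamycin stops N-linked sugar chains from being started on new proteins. No group carried a genetic change. The labels used here give no dose and no length of treatment, and they do not say that replicates were separate cultures, so the spread behind each p-value may be technical. RNA came from whole cultures, in which a change in RNA per cell and the loss of some of the cells cannot be told apart.

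Only 5 of the 9 deposited signal columns were single arrays, and the other 4 were weighted averages into which other columns had gone. The comparisons therefore used 1 DMSO array (replicate 1), 2 thapsigargin arrays (replicates 1 and 3) and 2 tunicamycin arrays (replicates 1 and 2), with between 12494 and 12737 probes detected on each. A second DMSO array and a further array labelled tunicamycin could be recovered from the weighted means. That recovered tunicamycin array stood apart from its group and beside DMSO for all 5 genes. Markers of the labelled line were present: PHOX2A, GATA2, GATA3, ISL1, DBH and CHGA were detected on 5 of 5 arrays and HAND2 on 0. KRT8, CDH1, CD3E and HBB, markers of epithelium and blood, were detected on 0, while EPCAM and KRT18 were detected on all 5 and PTPRC on 4. Of 7 markers of the mesenchymal, substrate-adherent neuroblastoma state, COL1A1, SNAI2 and CD44 were detected on 5 arrays. COL3A1 was detected on 1, and PRRX1, FN1 and YAP1 on 0. The highest normalized log2 value of any detected epithelial, blood or mesenchymal marker was 5.91 (KRT18). The detected neuroblast markers named above reached 9.91 (GATA3) to 12.58 (DBH), but TH, another of that list detected on 5 arrays, reached only 5.31.

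When unfolded proteins build up in the ER, the kinase PERK phosphorylates the translation factor eIF2, which slows protein synthesis in general but lets the mRNA of the transcription factor ATF4 be translated. ATF4 raises transcription of DDIT3, and CHOP in turn pairs with C/EBP proteins such as the product of CEBPB. TRIB3 and PPP1R15A are targets of ATF4 and CHOP. Lasting CHOP activity is known as a step from adaptation to cell death. The list of 5 thus spans transcription factors, a phosphatase subunit that reverses the eIF2 block, a pseudokinase that binds AKT, and an inhibitor of the growth kinase TOR.

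Among the windows searched for the 5 genes, only that of PPP1R15A held a full cyclic AMP response element. TRIB3 and DDIT4 are not shown. The sequences just before the start sites of PPP1R15A and of DDIT3 and CEBPB, the pair with the largest changes, are given as examples. They come from RefSeq (GRCh38.p14), cover the 250 bases upstream of the start and read 5′ to 3′ on the gene's strand. Where RefSeq gives several start sites, the most downstream was used. DDIT3 lies on the minus strand (chr12:57520515-57520764), CEBPB on the plus strand (chr20:50190580-50190829) and PPP1R15A on the plus strand (chr19:48872171-48872420). Capitals mark CCAAT boxes on either strand and, in DDIT3, the 9 bases and CCAC that follow the first box; in PPP1R15A they mark the response element TGACGTCA.
DDIT3: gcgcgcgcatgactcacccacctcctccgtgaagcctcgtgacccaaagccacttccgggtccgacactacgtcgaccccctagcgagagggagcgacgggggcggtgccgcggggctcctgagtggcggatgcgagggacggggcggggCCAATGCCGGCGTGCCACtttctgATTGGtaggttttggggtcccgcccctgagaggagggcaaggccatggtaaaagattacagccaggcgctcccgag
CEBPB: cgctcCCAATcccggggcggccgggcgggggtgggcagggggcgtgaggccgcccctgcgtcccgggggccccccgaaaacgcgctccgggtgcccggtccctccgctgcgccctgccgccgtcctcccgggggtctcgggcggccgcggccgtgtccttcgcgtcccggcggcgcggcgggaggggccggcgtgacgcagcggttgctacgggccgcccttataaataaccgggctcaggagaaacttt
PPP1R15A: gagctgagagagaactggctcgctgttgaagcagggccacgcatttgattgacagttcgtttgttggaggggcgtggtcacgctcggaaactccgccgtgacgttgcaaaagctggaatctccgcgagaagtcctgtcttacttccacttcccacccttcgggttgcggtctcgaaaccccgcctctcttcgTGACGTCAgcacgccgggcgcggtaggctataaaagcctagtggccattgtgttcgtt

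The windows searched for motifs on both strands also held the first 50 transcribed bases. The C/EBP-ATF composite site TGATGCAA, at which CHOP partners and ATF4 are known to act, was in the window of none of the 5 genes and in 0.866% of all 35116 windows. The ER stress response element (ERSE), in which CCAAT and CCACG are 9 bases apart, was likewise in none of the 5 and in 0.0769% of all windows, and the core TGACGTGG of the unfolded protein response element was in none and in 0.729%. In DDIT3, CCAAT lay 100 to 96 bases before the start and was followed after 9 bases by CCAC, so that the ERSE was complete but for its last base. That shortened form, searched for after the windows had been read, was in 0.316% of all windows. A second CCAAT lay on the other strand, 76 to 72 bases before the start. CCAAT alone was in DDIT3, CEBPB and DDIT4 and in 34.6% of all windows, and any ERSE contains it. PPP1R15A held TGACGTCA from 58 to 51 bases before the start, a motif in 1.85% of windows. TRIB3 held none of the motifs in any of its 3 windows. GC content was 76.7% for CEBPB, 75.7% for TRIB3, 69.7% for DDIT4, 63.3% for DDIT3 and 56.0% for PPP1R15A, against a median of 58.7% over all windows. A match in these windows is a description of the letters, and elements outside them were not searched.

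DDIT3 and CEBPB had the largest changes of the 5, and DDIT3 led with tunicamycin. Its deposited intensity was 213.4 on the DMSO array, 2023 and 1610 on the thapsigargin arrays, and 3716 and 4285 on the tunicamycin arrays. The 3 groups did not overlap, and DMSO was lowest and tunicamycin highest. After background correction and quantile normalization (neqc), the log2 intensity went from 7.28 with DMSO to 10.83 ± 0.0026 (SD, n = 2) with thapsigargin and to 11.96 and 12.03 on the tunicamycin arrays (SD 0.047, n = 2). These are changes of 11.7-fold (95% interval 10.1 to 13.6) and 26.3-fold (22.8 to 30.5). Among the 11653 probes detected on all 5 arrays, DDIT3 ranked 1 from the top with each drug. With thapsigargin its lead over CEBPB depended on the processing: the log2 changes were 3.55 and 3.48, and CEBPB was the higher on the authors' normalized values (3.25 for DDIT3 and 3.30 for CEBPB), under normexp with an offset of 50 (3.19 and 3.23), without background correction (3.25 and 3.27) and with all 9 columns (3.21 and 3.25). DMSO has a single array here, so its own deviation enters both changes, and the intervals take it to vary like the treated arrays.

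CEBPB, the bZIP factor that CHOP binds and whose own targets include inflammatory and metabolic genes, had a change close to that of DDIT3 with thapsigargin and a smaller one with tunicamycin. Its intensity was 309.2 with DMSO, 2896 and 2334 with thapsigargin, and 2981 and 3315 with tunicamycin. On the deposited scale the highest thapsigargin array thus came close to the lower tunicamycin array, and every treated array was far above DMSO. In log2 terms CEBPB went from 7.92 to 11.40 ± 0.014 (SD, n = 2) with thapsigargin and 11.66 ± 0.0057 (SD, n = 2) with tunicamycin. The changes were 11.2-fold (9.68 to 12.9) and 13.3-fold (11.6 to 15.4), ranks 2 and 3.

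TRIB3 encodes a pseudokinase that binds AKT and ATF4 and is known as a feedback target of CHOP. Its intensity was 513.7 with DMSO, 2564 and 1970 with thapsigargin, and 3136 and 3348 with tunicamycin. All 4 treated arrays lay above DMSO, with tunicamycin above thapsigargin. The log2 intensity went from 8.74 to 11.18 ± 0.039 (SD, n = 2) and 11.70 ± 0.031 (SD, n = 2). TRIB3 was 5.43-fold higher with thapsigargin (4.69 to 6.29) and 7.79-fold higher with tunicamycin (6.73 to 9.02), ranks 9 and 11.

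PPP1R15A encodes GADD34, the stress-induced subunit that brings protein phosphatase 1 to eIF2 and so restarts translation. The intensity of its probe was 604.7 with DMSO, 957 and 799.3 with thapsigargin, and 1368 and 1476 with tunicamycin. The groups did not overlap, but the step from DMSO to thapsigargin was small beside that of DDIT3. The log2 intensity went from 8.98 to 9.76 ± 0.047 (SD, n = 2) and 10.49 ± 0.024 (SD, n = 2), 1.71-fold (1.47 to 1.98) and 2.84-fold (2.45 to 3.29) higher. Its ranks were 295 with thapsigargin and 106 with tunicamycin.

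DDIT4 encodes REDD1, an inhibitor of TOR complex 1 that is induced by several stresses. It had the smallest changes of the 5: its intensity was 2031 with DMSO, 2507 and 2070 with thapsigargin, and 2907 and 3317 with tunicamycin. On the deposited scale the thapsigargin replicate 3 array was nearly level with DMSO. That array also had the lowest mean intensity over all probes, 318 against 391 to 410 for thapsigargin replicate 1 and DMSO. After normalization the log2 intensity went from 10.80 to 11.21 ± 0.064 (SD, n = 2) and 11.64 ± 0.038 (SD, n = 2), 1.32-fold (1.14 to 1.54) and 1.78-fold (1.53 to 2.08) higher. Its ranks were 1130 and 424.

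**Figure D1:**
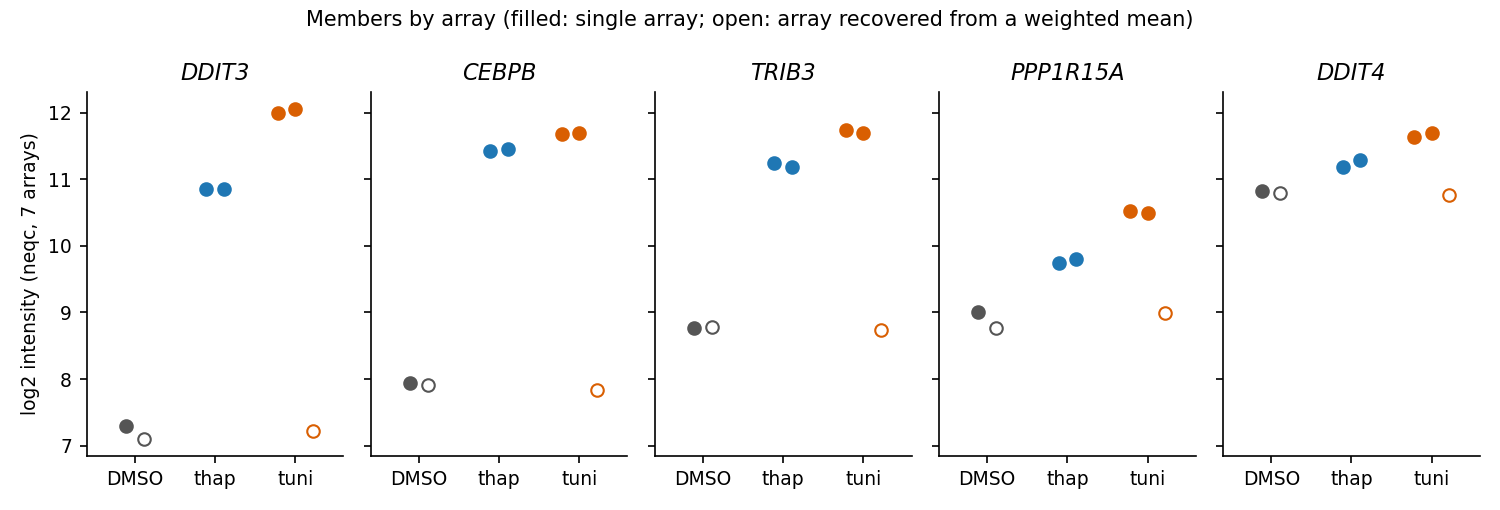
Normalized log2 intensity of the 5 probes on 7 arrays, one panel a gene, by treatment (DMSO, thapsigargin as thap, tunicamycin as tuni). Filled points are single deposited arrays and open points arrays recovered from weighted means, and levels are not comparable between panels. The open tunicamycin point lies beside the DMSO points in every panel, at 7.22 for DDIT3 against 7.10 and 7.30 in DMSO.

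The changes against DMSO share the 1 DMSO array, so a high or low value there shifts the change with both drugs. The recovered DMSO array gives a check of that value. Normalized together with the others, it differed from the first DMSO array by -0.20 on the log2 scale for DDIT3 and -0.23 for PPP1R15A, and by 0.02 for TRIB3, -0.03 for CEBPB and -0.03 for DDIT4. Over the 12989 probes kept for testing, 5% of such differences were below -0.234 and 5% above 0.213. For DDIT3 and PPP1R15A the DMSO arrays thus differed nearly as much as the outer 5% of probes did. The lowest treated array exceeded the higher DMSO array by 0.74 for PPP1R15A, and this gap was 3.55 for DDIT3, 3.49 for CEBPB, 2.40 for TRIB3 and 0.37 for DDIT4.

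The deposited tunicamycin replicate 3 column, which is in part the recovered tunicamycin array, read 2977 for DDIT3, below both single tunicamycin arrays. The recovered array itself read 189.3 for DDIT3, 263.7 for CEBPB, 450.1 for TRIB3, 524.4 for PPP1R15A and 1690 for DDIT4. On the normalized log2 scale it differed from the first DMSO array by -0.09, -0.11, -0.02, -0.01 and -0.05 in that order. For none of the 5 genes was it above the higher DMSO array. Over all probes kept for testing it was above both DMSO arrays for 35%, so none of 5 is not unusual. Whether these cells received no drug or received it without responding cannot be told apart from the files.

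**Figure D2:**
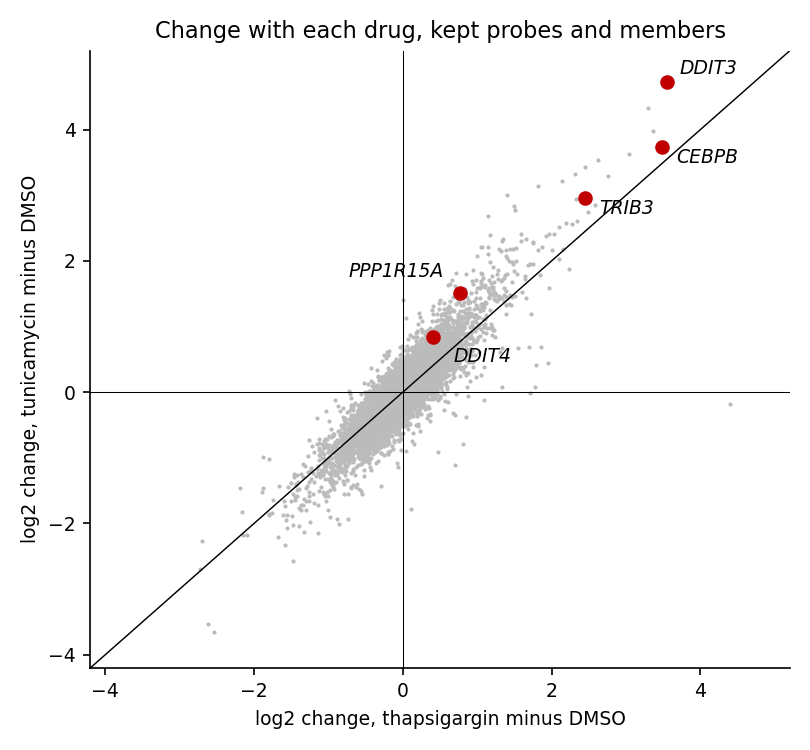
Log2 change with thapsigargin (x axis) and with tunicamycin (y axis), both against the same DMSO array, for the 12989 probes tested (grey) and the 5 genes (red), with the line of equal change. DDIT3 lies at 3.55 and 4.72 and DDIT4 at 0.40 and 0.83, and all 5 points lie above the line.

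The difference between the drugs does not use the DMSO array and was tested over all 12989 probes. The genes were chosen with earlier results of these same treated arrays known. The p-values of this difference therefore cannot be taken as free of that choice. DDIT3, PPP1R15A, TRIB3 and DDIT4 were higher with tunicamycin than with thapsigargin, and CEBPB missed the threshold. Over all probes tested, 5.64% were higher with tunicamycin and 4.67% higher with thapsigargin at an adjusted p below 0.05. The 5 genes rose with both drugs, so all probes are not a matched background for the 4 of 5. Of 26 genes tested in the ATF6 and XBP1 branches, 20 were also higher with tunicamycin and 0 with thapsigargin. The direction is thus not particular to the 5.

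DDIT3 was 2.25-fold higher with tunicamycin (95% interval 1.99 to 2.53, limma adjusted p = 0.000433). PPP1R15A was 1.66-fold higher (1.47 to 1.88, limma adjusted p = 0.00246), so that the phosphatase subunit with a small change against DMSO had the second difference in size. TRIB3 was 1.43-fold higher (1.27 to 1.62, limma adjusted p = 0.00817). DDIT4 was 1.35-fold higher (1.19 to 1.53, limma adjusted p = 0.0174). CEBPB was 1.19-fold higher with an interval of 1.06 to 1.34 and a limma adjusted p of 0.0631. For each of the 5 genes both tunicamycin arrays exceeded both thapsigargin arrays on the normalized scale. The gap was 1.13 for DDIT3, 0.69 for PPP1R15A, 0.46 for TRIB3, 0.35 for DDIT4 and 0.23 for CEBPB. How many of all probes separate in this way was not counted, so the gaps are a description and add no test.

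These calls rest on 2 arrays a drug. Without thapsigargin replicate 1, the limma adjusted p was 0.0505 for TRIB3 and 0.0921 for DDIT4, and without thapsigargin replicate 3 it was 0.0808 and 0.0848. DDIT4 also lost its call without tunicamycin replicate 1 (limma adjusted p = 0.0595) or replicate 2 (0.0724), while DDIT3 and PPP1R15A kept theirs in all 4 cases. CEBPB passed under 5 of 15 alternatives, with limma adjusted p-values from 0.00151 to 0.927 over all 15. With both recovered arrays added, 0 of the 5 genes was called by limma. The fitted log2 difference, thapsigargin minus tunicamycin, was then 0.43 for DDIT3, 0.48 for TRIB3, 1.04 for CEBPB, -0.23 for PPP1R15A and -0.12 for DDIT4, since the array beside DMSO was averaged into the tunicamycin group.

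**Figure D3:**
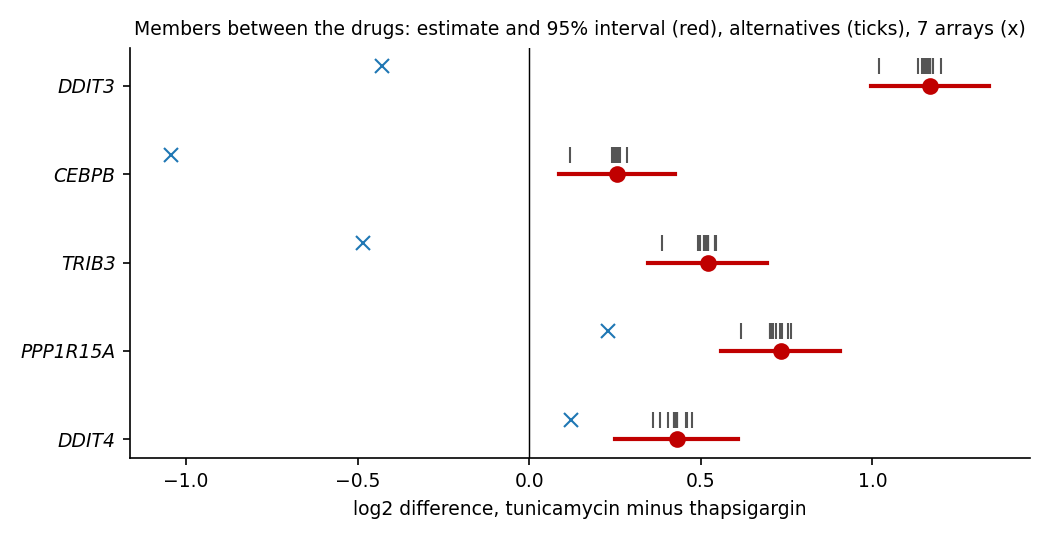
Log2 difference between tunicamycin and thapsigargin for the 5 genes: red points and lines give the estimate and its 95% interval, grey ticks the other alternatives, and blue crosses the fit with both recovered arrays. The estimates run from 1.17 for DDIT3 to 0.26 for CEBPB, and the crosses of DDIT3, CEBPB and TRIB3 lie left of 0.

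Set side by side, the log2 change with thapsigargin was 0.93 of that with tunicamycin for CEBPB, 0.82 for TRIB3, 0.75 for DDIT3, 0.51 for PPP1R15A and 0.49 for DDIT4. Over 8 choices of 1 array a group, with the recovered DMSO array included and 7 arrays normalized together, this share ran from 0.932 to 0.939 for CEBPB, 0.81 to 0.844 for TRIB3, 0.745 to 0.768 for DDIT3, 0.486 to 0.603 for PPP1R15A and 0.429 to 0.592 for DDIT4. The ranges of PPP1R15A and DDIT4 overlapped each other and no other. The 8 choices share arrays, and both changes in each share use the same DMSO array. A set of 265 probes was detected on all 5 arrays and at least 2-fold higher with tunicamycin, 4 of the 5 genes among them. Its median share was 0.706 and the quartiles 0.554 and 0.829. The share is divided by the same tunicamycin change that chose the set, which favours low shares.

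Likeness of pattern was measured as the Euclidean distance between probes over the 4 treated arrays, each as a log2 difference from DMSO, so it ranks probes by both size and shape. Within the 5 genes, DDIT3 and CEBPB were 1.39 apart and PPP1R15A and DDIT4 1.08, against 7.07 between DDIT3 and DDIT4. The probe nearest to DDIT3 was that of GDF15, a secreted stress cytokine, at a distance of 0.657 and with log2 changes of 3.30 with thapsigargin and 4.33 with tunicamycin. NIBAN1 followed at 1.09 and CEBPB came after it. NIBAN1, whose product is known from the cellular stress response, was nearest to CEBPB with 2 probes, at 0.374 and 0.653, and GDF15 followed at 0.878. DDIT3 and CEBPB have the same 2 genes among their nearest probes. Both ranked between 1 and 3 of 11653 probes with each drug, so few probes can lie near either. Likeness of shape apart from size was not tested.

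TRIB3 lay nearest to WIPI1, a lipid-binding protein of autophagy, at 0.182, then to AKNA at 0.266 and PLPP5 at 0.378. WIPI1 changed by 2.33 and 2.94 on the log2 scale, against 2.44 and 2.96 for TRIB3. PPP1R15A lay nearest to RHBDF1 (0.122), to the clock gene PER3 (0.157) and to ERP44 (0.177), a chaperone of the early secretory pathway. DDIT4 lay nearest to TMEM41B (0.0723), ELF4 (0.0756) and RNF181 (0.0789). With changes as small as that of DDIT4 many probes lie close.

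Around the 5 genes, 94 genes in 6 lists were examined, of which 81 had a detected probe. The lists came from textbook knowledge with earlier results of these data known, and the 5 genes are in none. With thapsigargin 40 rose and 4 fell, where 12.2% of all probes tested rose and 13.3% fell. With tunicamycin 50 rose and 5 fell, where 17.2% of all probes rose and 18.8% fell. The median log2 change of the 81 genes was 0.30 with thapsigargin and 0.46 with tunicamycin, against -0.003 and -0.011 over all probes. All these tests against DMSO set the treated arrays against 1 array, whose spread was taken from the other groups. When the recovered DMSO array replaced it, 43 rose and 3 fell with thapsigargin and 49 rose and 6 fell with tunicamycin. With both DMSO arrays (6 arrays), the counts were 46 and 4, and 53 and 7. Between the drugs, 30 were higher with tunicamycin and 2 with thapsigargin, against 18 and 0 without thapsigargin replicate 1 and 16 and 0 without thapsigargin replicate 3.

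Upstream of ATF4, 13 of 14 genes of the eIF2 kinases, the eIF2B exchange factor and the phosphatase were tested. EIF2AK3, the gene of PERK, rose with thapsigargin by a log2 value of 0.74 (limma adjusted p = 0.00303) and by 1.20 with tunicamycin (0.000251). It was the 1 gene of the list that rose with thapsigargin. With tunicamycin 2 rose, the other being the eIF2B subunit EIF2B4 at 0.36 (limma adjusted p = 0.0201), while its second probe was at -0.07 and did not pass. Over all probes tested, 12.2% rose with thapsigargin and 17.2% with tunicamycin, so 1 and 2 of 13 do not set the list apart. EIF2B2, another eIF2B subunit, was at 0.17 and 0.28 and passed with neither drug. With tunicamycin EIF2B2 missed the test in 8 of the 14 alternatives other than the fit with both recovered arrays, so its result depended on the processing. The catalytic subunits of protein phosphatase 1, which GADD34 recruits, did not pass with either drug: PPP1CA was at -0.04 and 0.05, PPP1CB at 0.04 and 0.20, and PPP1CC at -0.07 and 0.02. EIF2AK3 was also the only gene of the list that differed between the drugs, 0.46 higher with tunicamycin (limma adjusted p = 0.0221), and it lost that call without any 1 of the 4 treated arrays.

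Among ATF4, its partner factors and the C/EBP family, 11 of 12 genes were tested. With thapsigargin 6 rose and 0 fell (median 0.42), and with tunicamycin 9 rose and 0 fell (median 0.63). CEBPG, a dimer partner of other C/EBP proteins, rose by 1.68 and 1.94. ATF5, a target and relative of ATF4, rose by 1.49 and 1.84. ATF3, a repressor that follows ATF4, rose by 1.17 and 2.39. CEBPA, named here after its values were seen, was at 0.72 and 0.89. The largest limma adjusted p among these 8 changes was 0.00276.

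ATF4 itself rose by 1.51 with thapsigargin and 1.47 with tunicamycin on its brighter probe (limma adjusted p = 0.00029 and 0.000195). Its second probe was at 0.06 and 0.11 and passed with neither. On the brighter probe ATF4 did not pass between the drugs (limma adjusted p = 0.821), with tunicamycin minus thapsigargin between -0.284 and 0.194 on the log2 scale. ATF3 differed by 1.22 (1.05 to 1.40, limma adjusted p = 0.000433), close in size to DDIT3 at 1.17. ATF5, at 0.36 (limma adjusted p = 0.0337), was the other gene of the list that passed, and it lost the call without any 1 of the 4 treated arrays.

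Of 9 genes of the Tribbles family, AKT and the insulin receptor pathway, 7 were tested, and with each drug 0 rose and 2 fell. Over all probes tested, 13.3% fell with thapsigargin and 18.8% with tunicamycin, so 2 of 7 is too few to set the list apart. IRS2, a docking protein of the insulin receptor, fell by 0.58 (log2) with thapsigargin and by 0.45 with tunicamycin (limma adjusted p = 0.00628 and 0.0126). COP1, a ubiquitin ligase that Tribbles proteins recruit, fell by 0.49 with thapsigargin (limma adjusted p = 0.00712), and AKT1 by 0.35 with tunicamycin (0.0233). TRIB1 was at 0.25 and -0.22 against DMSO and TRIB2 at -0.16 and -0.28, without passing for either drug. TRIB1, named for this after its values were seen, was higher with thapsigargin by 0.47 (limma adjusted p = 0.0106), the opposite direction to TRIB3. It lost that call without thapsigargin replicate 1 or 3. These counts moved with the processing: in the fit with both DMSO arrays, 1 gene of the list rose and 4 fell with tunicamycin. With that drug TRIB2 missed the test in 5 of the 14 alternatives other than the fit with both recovered arrays. TRIB1 missed it in 7, so neither can be taken as unchanged. IRS1, at 0.40 with tunicamycin (limma adjusted p = 0.0525), passed upward in the fit with both DMSO arrays (0.0117), as did TRIB1 with thapsigargin (0.0403). With median centring in place of quantile normalization, 1 gene of the list rose and 4 fell with tunicamycin.

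DDIT4 was set beside 14 genes that act on or below the TOR kinase, 11 of them tested. With thapsigargin 3 rose and 1 fell, and with tunicamycin 6 rose and 1 fell. Over all probes tested, 12.2% rose and 13.3% fell with thapsigargin, and 17.2% rose and 18.8% fell with tunicamycin. SESN2, a sestrin that restrains TOR complex 1, was not well above background on the DMSO array and rose at least 3.78-fold with thapsigargin and at least 5.16-fold with tunicamycin (limma adjusted p = 3.44e-05 and 8.62e-06). These bounds set the treated mean against the lowest detected signal or the probe's own, whichever was higher, on neqc values. DEPTOR, an inhibitor bound to TOR, rose by 1.44 and 1.49. EIF4EBP2, a translation repressor that TOR keeps inactive, fell by 0.38 and 0.73 (limma adjusted p = 0.0332 and 0.00168). Both SESN2 and DEPTOR thus had larger changes than DDIT4, at 0.40 and 0.83 on the log2 scale, and this contrast between genes was not tested. Between the drugs, SESN1, SESN2 and RPS6KB1 were higher with tunicamycin and EIF4EBP2 with thapsigargin. All 4 lost that call without thapsigargin replicate 1, thapsigargin replicate 3 or tunicamycin replicate 1, and RPS6KB1 and EIF4EBP2 also without tunicamycin replicate 2. SESN1 and RPS6KB1 were named after their values were seen. With median centring, 2 rose and 1 fell with tunicamycin and the list's median with thapsigargin was -0.004 in place of 0.13. The median over all probes with thapsigargin moved too, from -0.003 to -0.064, so the list's median stayed above it.

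Of 17 genes linked to CHOP in oxidation and cell death, 13 were tested. With thapsigargin 6 rose and 1 fell (median 0.30), and with tunicamycin 9 rose and 2 fell (median 0.50). ERO1B, an ER oxidase, was not well above background with DMSO and rose at least 2.03-fold with thapsigargin and at least 5.86-fold with tunicamycin (limma adjusted p = 0.000611 and 1.1e-05). CHAC1, a glutathione-degrading enzyme known as a target of the ATF4 and CHOP branch, rose from below background by at least 1.80-fold with thapsigargin and 3.10-fold with tunicamycin (0.000216 and 1.89e-05). The death receptor gene TNFRSF10B rose by 0.75 and 0.99 on its brighter probe, while its second probe was at -0.08 and -0.16 and passed with neither.

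ERO1A, the oxidase for which regulation by CHOP is best known, fell by 0.48 and 0.56 (limma adjusted p = 0.0123 and 0.00463), while its paralog ERO1B rose. It was named after its values were seen. ERO1A lost its call with thapsigargin when the recovered DMSO array replaced the first (log2 change -0.28, limma adjusted p = 0.0795) and without thapsigargin replicate 3 (-0.42, 0.0543). Between the drugs 4 genes were higher with tunicamycin: ERO1B by 1.53 on the log2 scale, CHAC1 by 0.79, GADD45A by 0.64 and BAK1 by 0.33. Without thapsigargin replicate 1 or 3 the count was 2, since GADD45A and BAK1 lost their calls, and BAK1 lost its call without either tunicamycin array too. GADD45A and BAK1 were named after their values were seen. GADD45A, a growth arrest gene, was at -0.004 with thapsigargin (limma adjusted p = 0.982) and rose by 0.64 with tunicamycin (0.00455). With median centring, the counts of the list were 4 rises and 1 fall with thapsigargin and 7 and 2 with tunicamycin.

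The ATF6 and XBP1 branches run beside the PERK branch and raise chaperones and the machinery that clears misfolded protein. Of 28 genes 26 were tested, and 24 rose and 0 fell with each drug, with a median log2 change of 1.17 with thapsigargin and 1.97 with tunicamycin. CRELD2 rose by 2.62 and 3.53, HERPUD1, part of the ER degradation machinery, by 2.45 and 3.42, and the chaperone gene HSPA5 by 2.32 and 3.32. The 3 limma adjusted p-values of these genes with thapsigargin were at most 1.82e-05. ERN1, the gene of the sensor IRE1, was at -0.02 and 0.21, and DERL1 at 0.21 and 0.10, without passing. Between the drugs 20 were higher with tunicamycin and 0 with thapsigargin, and the 20 became 15 without thapsigargin replicate 1 and 13 without thapsigargin replicate 3. HSPA5 differed by 1.00, CRELD2 by 0.92 and HERPUD1 by 0.97, values near the 1.17 of DDIT3 and above the 0.52 of TRIB3. With both recovered arrays added, 0 listed genes were called by limma in any of the 3 comparisons.

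**Figure D4:**
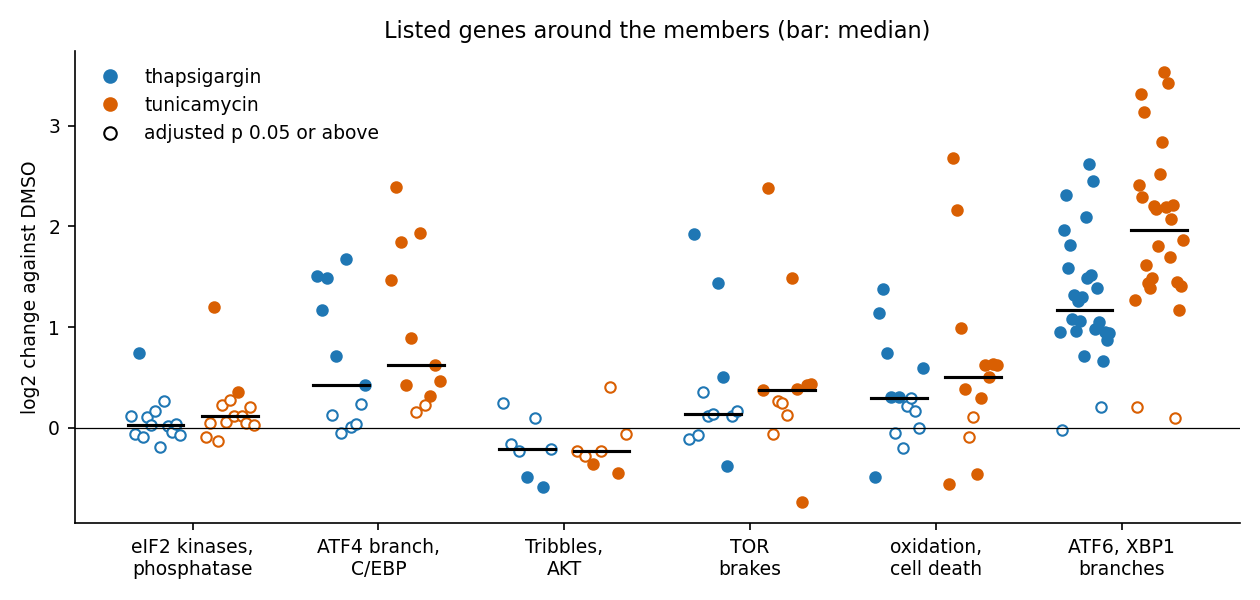
Log2 change against DMSO of the 81 listed genes by list, thapsigargin in blue and tunicamycin in orange; filled points passed the test, open points did not, and bars are medians. The ATF6 and XBP1 genes have medians of 1.17 and 1.97, while those of the eIF2 list lie at 0.03 and 0.12; changes of genes below background in DMSO are the fitted values.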

How the data were processed

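Biotin-labelled cRNA from total RNA was hybridised to 1-colour arrays, per the labels. Per the file headers the deposited table was non-normalized, with an intensity and a detection p-value a probe and sample. A second deposited table held intensity values with identical sorted columns, as after quantile normalization by the authors. No processing software is given in the sources used here.

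Columns DMSO 2 and thapsigargin 2 equalled means of their neighbours within 1.52e-07, DMSO 3 held 0.25 of a further array, and tunicamycin 3 held 0.25 of another. The detection p-values used for an array were those whose order its intensities followed without a break. For DMSO 1 and thapsigargin 1 they were headed replicate 2 of that group, and for the other single arrays their own sample. The p-values headed DMSO 1 were those of tunicamycin 2 and were not used for DMSO. The 5 single arrays were normalized by neqc (offset 16) in limma 3.58.1 (R 4.3.3), with controls inferred from detection p-values. Probes detected (p below 0.05) on every array of at least 1 group were kept, 12989 in all. limma with eBayes had 2 residual degrees of freedom, and p-values were two-sided and Benjamini-Hochberg adjusted over all kept probes. The fit was also run on simulated data with independent normal noise of the fitted spread, which is what the model assumes. That run checks the code and cannot test the reliance on 1 DMSO array or on replicates that may be technical. The platform annotation named 19715 probes, 2469 had no symbol, and 19695 matched RefSeq by Entrez ID; a gene's brightest kept probe counted. The number of arrays limits precision.

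Members, lists and design were chosen with earlier results of these data known. Named genes are the 5, the 3 nearest probes of each and, in each list, the 3 with the largest mean change over both drugs, plus any needed to state a missed test; others are marked as named after their values were seen. Alternatives covered background, normalization, filter, variance model and arrays. Figures used Python 3.11.15 and matplotlib 3.10.9.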

Additional observations from a re-analysis of the deposited data

How the results depend on the processing

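Over 15 alternatives, the log2 change of DDIT3 ranged from 3.19 to 3.76 with thapsigargin and from 3.22 to 4.92 with tunicamycin, and that of DDIT4 from 0.27 to 0.46 and from 0.56 to 0.87; no change of the 5 genes against DMSO turned its direction. With both recovered arrays (7 arrays), thapsigargin minus tunicamycin turned to 0.43 for DDIT3, 0.48 for TRIB3 and 1.04 for CEBPB, and limma called 0 of the 5 genes, 0 listed genes in each comparison, and 5, 0 and 8 probes for thapsigargin, tunicamycin and between the drugs, with 2722, 1975 and 937 at an unadjusted p below 0.05. Calls of the 5 genes between the drugs numbered 2 to 3 when 1 array was left out, against 4. With 1 array left out there were 2093 to 3129 probes for thapsigargin (3323 on 5 arrays), 3598 to 4478 for tunicamycin (4681) and 180 to 534 between the drugs (1340), and 39 to 42 (44), 48 to 55 (55) and 16 to 26 (32) listed genes; a lone array then borrowed its spread from the others. Between the drugs, trended robust variances gave 2698 probes, normexp 2475, uncorrected background 2351 and the values normalized by the authors 2339; the cause was not tested. Taking all 9 columns as independent gave 8105, 8545 and 5440 probes and 51 listed genes between the drugs, since means count arrays more than once. Centring on medians gave 1109 rises and 2124 falls with thapsigargin (1590 and 1733 after quantiles), 1652 and 2590 with tunicamycin (2240 and 2441), and 450 and 733 between the drugs (607 and 733). No paired analysis was possible because the single arrays of the groups compared share only replicate number 1.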
